A study of Homo sapiens with 6 samples.

Results

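The 10 genes described here make the proteins that coat lipid droplets, the lipases that empty them, the regulators of those lipases and 2 proteins that help droplets form. They were chosen by symbol from the count table, which lists 54261 gene symbols. All 10 (PLIN2, PLIN3, HILPDA, G0S2, PNPLA2, ABHD5, LIPE, MGLL, BSCL2 and FITM2) were found, and all 10 passed the filter on low counts, which left 14398 tested genes. RNA was sequenced from 3 PHF8 knockout libraries and 3 control libraries of the cell line 786-O, which was derived from a human clear cell renal carcinoma and has no working VHL. The knockout cells received PHF8-sgRNA and the control cells a control guide, both by CRISPR-Cas9, and all were grown in RPMI-1640 with fetal bovine serum. Whether the knockout cells are a pool or 1 clone is not stated, nor whether separate cultures gave the 3 libraries of a group, so the p-values rest on a spread among libraries that may be technical only. PHF8 is a histone demethylase that removes repressive methyl marks, and the comparison shows which of these transcripts differ when it is targeted.

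Lipid droplets store triglycerides and cholesteryl esters under a surface coat of perilipins, and lipid-filled cytoplasm gives clear cell renal carcinoma its name. Perilipins limit the access of lipases. PNPLA2 (also called ATGL) cuts the first fatty acid from a triglyceride with its co-activator ABHD5, LIPE (hormone-sensitive lipase) cuts diglycerides and cholesteryl esters, and MGLL cuts the remaining monoglyceride. G0S2 and HILPDA are small proteins that bind PNPLA2 and inhibit it. BSCL2 (seipin) and FITM2 act in the endoplasmic reticulum where droplets are assembled.

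PHF8 itself had 259, 167 and 348 reads in knockout libraries 1, 2 and 3, against 833, 876 and 881 reads in control libraries 1, 2 and 3. That is 10.1 ± 3.08 CPM in knockout cells and 34.8 ± 1.83 CPM in control cells (CPM, counts per 1e6 reads with TMM-scaled library totals; SD, n = 3 each). The log2 fold change was -1.78 (edgeR adjusted p = 1.19e-04), so transcripts were reduced but not absent. Libraries held 25632275 to 29095133 reads in knockout and 21533615 to 25055762 in control cells. The 11 renal carcinoma markers summed to 7740 to 9214 CPM in knockout and 6883 to 6955 CPM in control libraries, and most of the sum was VIM (5339 to 6913 CPM in knockout and 5138 to 5167 CPM in control libraries). They did not move together, since PAX8 averaged 363 CPM in knockout and 223 CPM in control cells, and PAX2 3.1 CPM in knockout and 6.57 CPM in control cells. CA9 averaged 0.61 CPM in knockout and 0.62 CPM in control cells. ANGPTL4, EGLN3, VEGFA and KRT18 had log2 fold changes of 0.98, 1.13, 0.55 and 0.33. Like PAX8, they passed as higher in knockout cells (edgeR, adjusted p under 0.05). PAX2 alone of the 11 passed as lower. VIM, KRT8, CA9 and EPAS1 did not pass, and NDUFA4L2 was not tested. Of 6 adipocyte markers 3 (ADIPOQ, LEP and CIDEA) had 0 reads in every library, and the 6 summed to 0.16 to 0.33 CPM in knockout and 0.15 to 0.48 CPM in control libraries. The 4 hepatocyte markers summed to at most 0.042 CPM in knockout and 0.044 CPM in control libraries. Endothelial markers summed to 1.5 to 3.03 CPM in knockout and 1.40 to 1.49 CPM in control libraries. Fibroblast markers summed to 0.32 to 1.0 CPM in knockout and 1.76 to 2.36 CPM in control libraries. Immune markers summed to 112 to 122 CPM in knockout and 43.8 to 48.0 CPM in control libraries, nearly all of it CD68, a lysosomal protein gene, with PTPRC and CD3E at 0 reads. The part of these differences in the results below was not tested. In bulk RNA a change in the share of cells that use a gene and a change of RNA per cell cannot be told apart.

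Relative to control cells and with TMM scaling, PHF8 knockout cells carried more PLIN2, G0S2, PNPLA2 and MGLL RNA and much less LIPE RNA. With a further offset for transcript length and GC, PLIN2 and MGLL still passed as higher and LIPE as lower, but G0S2 no longer passed and PNPLA2 passed as lower (log2 fold change -0.20). Of the 10 genes, 4 passed as higher and 1 as lower (edgeR, adjusted p under 0.05 over all tested genes). The difference between these cells was broad, since 28.9% of tested genes passed as higher and 30.8% as lower, 59.7% in all, so 5 of 10 is not above the background. These are 4158 genes higher and 4435 lower with TMM scaling, and 3153 higher and 5441 lower with library totals only, where 2 of the 10 passed as higher and 1 as lower. When the series' own cutoff of 2-fold was also required, LIPE alone of the 10 passed, against 23.4% of tested genes (9.2% higher and 14.2% lower). Knockout and control libraries did not overlap in 7 of the 10 genes, against 66.8% of tested genes. The median log2 fold change was 0.22 over the 10 genes and -0.01 over all tested genes. With the length and GC offset these medians were 0.03 and 0.01. Without control library 3 only 2 of the 10 passed as higher, PLIN2 and G0S2.

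**Figure D1:**
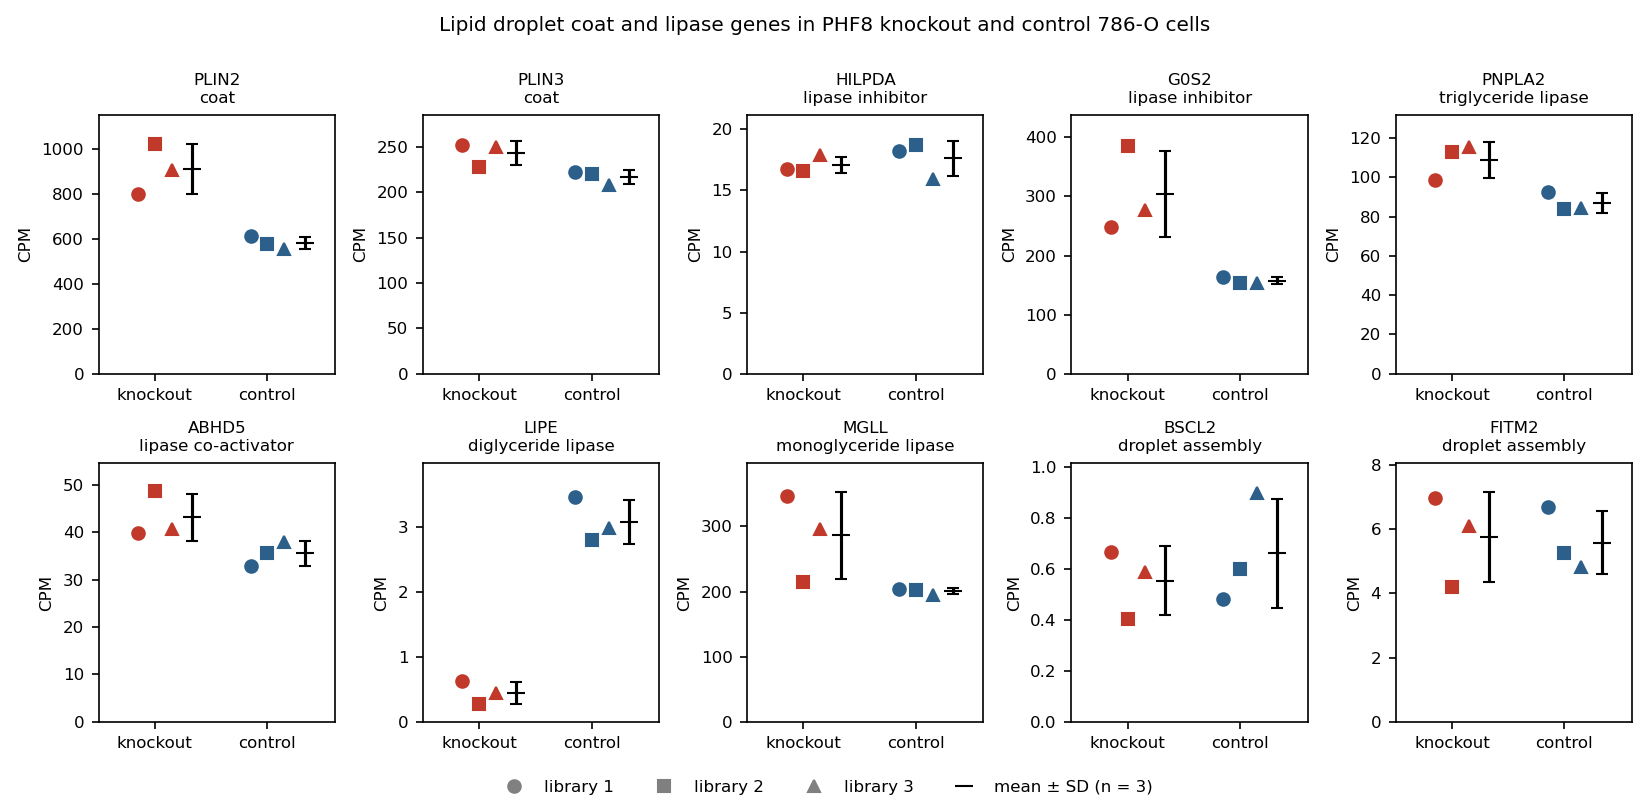
Level of each of the 10 genes in CPM (vertical axes, from 0) in 3 PHF8 knockout libraries (red, left) and 3 control libraries (blue, right), with the mean ± SD in black. LIPE lay between 0.28 and 0.62 CPM in knockout libraries, all below the control libraries, while PLIN2 lay between 798 and 1022 CPM in knockout libraries, all above the control libraries.

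The regions just before the annotated start sites of PLIN2, G0S2 and LIPE are printed because these 3 genes had the largest fold changes of the 10 in either direction. Each is the 250 bases upstream of a start, from RefSeq on GRCh38.p14, written along the gene's strand. Capitals mark the core of the hypoxia response element, ACGTG or GCGTG on either strand (CACGT or CACGC where it lies on the other strand), the letters that hypoxia-inducible factors recognise. PLIN2 lies at chr9:19127493-19127742 (minus strand) and G0S2 at chr1:209675162-209675411 (plus strand). LIPE has 2 listed starts, the upstream one at chr19:42427389-42427638 and the downstream one at chr19:42423586-42423835 (both minus strand).
PLIN2: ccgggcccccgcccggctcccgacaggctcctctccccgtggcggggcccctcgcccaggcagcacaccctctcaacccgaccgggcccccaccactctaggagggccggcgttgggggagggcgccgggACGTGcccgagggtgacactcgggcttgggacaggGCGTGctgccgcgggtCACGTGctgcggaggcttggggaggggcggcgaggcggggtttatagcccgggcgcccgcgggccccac
G0S2: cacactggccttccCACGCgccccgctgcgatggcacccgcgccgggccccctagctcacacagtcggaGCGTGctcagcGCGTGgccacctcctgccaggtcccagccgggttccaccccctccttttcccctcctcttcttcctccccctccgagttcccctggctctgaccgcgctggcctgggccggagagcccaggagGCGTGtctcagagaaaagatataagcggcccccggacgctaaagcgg
LIPE upstream start: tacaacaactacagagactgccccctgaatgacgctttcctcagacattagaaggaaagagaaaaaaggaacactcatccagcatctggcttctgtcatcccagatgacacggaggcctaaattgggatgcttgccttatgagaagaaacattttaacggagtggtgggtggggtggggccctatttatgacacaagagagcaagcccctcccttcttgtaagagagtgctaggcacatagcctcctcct
LIPE downstream start: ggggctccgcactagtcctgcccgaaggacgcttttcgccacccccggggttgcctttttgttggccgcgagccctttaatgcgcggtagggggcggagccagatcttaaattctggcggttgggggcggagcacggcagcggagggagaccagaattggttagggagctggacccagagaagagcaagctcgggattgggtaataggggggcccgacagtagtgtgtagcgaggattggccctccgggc
The PLIN2 window held 4 matches, 2 of them overlapping in CACGTG, which begins 69 bases before the start. The G0S2 window also held 4, the nearest beginning 47 bases before the start, and both LIPE windows held 0. Such matches are common, and 43.2% of the 35116 annotated windows of this length hold at least 1. The set of RefSeq start sites used here gave 13 windows for 8 of the 10 genes and none for HILPDA or MGLL. A match was held by 8 of the 13 windows. Among these 8, 2 windows of ABHD5 overlap and hold the same CACGC site, 35 and 103 bases before their starts. PLIN2, PLIN3, G0S2, ABHD5, BSCL2 and FITM2 had a match in at least 1 window, while PNPLA2 and LIPE had none. CpG dinucleotides numbered 28 in PLIN2, 21 in G0S2, 3 at the upstream and 18 at the downstream start of LIPE, against a median of 11 over all windows.
Other motifs were also searched on both strands. TATAAA, the letters of the TATA box (10.7% of all windows, either strand), was found on the gene's strand for BSCL2. For PLIN2 it was found only on the opposite strand, so the printed window reads TTTATA there. AGGTCA, a nuclear receptor half-site (12.1%), was found for PNPLA2, on the opposite strand. TTGCATCA, an ATF4 element (0.772%), and TGACGTCA, the cyclic AMP response element (1.65%), were in none of the 13 windows. The counts do not show which start was used, and a match of letters does not show binding.

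PLIN2 (perilipin 2, chromosome 9, 19108375 to 19149290, GRCh38), the perilipin that coats droplets in most cells other than adipocytes, had 798, 1022 and 906 CPM in knockout libraries 1, 2 and 3, against 611, 578 and 555 CPM in control libraries 1, 2 and 3. Every knockout library lay above every control library. PLIN2 rose 1.56-fold (log2 fold change 0.64, SE 0.11; edgeR adjusted p = 7.54e-04). Leaving out each library in turn gave log2 fold changes of 0.55 to 0.73. PLIN3 (chromosome 19, 4838341 to 4867694), a perilipin that moves from the cytosol onto young droplets, had 252, 228 and 249.5 CPM in knockout libraries and 222, 220.1 and 208 CPM in control libraries. Its groups did not overlap, but the difference was small (log2 fold change 0.16, SE 0.09, 95% interval -0.03 to 0.36) and did not pass (edgeR adjusted p = 0.13). Without knockout library 2 PLIN3 passed as higher (log2 fold change 0.21, edgeR adjusted p = 0.012). Over all alternatives its adjusted p ran from 0.0012 to 0.97, and the 0.0012 is from the length and GC offset, where PLIN3 passed as lower. The sign of PLIN3 depended on scaling, as given below with the length and GC offset.

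The inhibitors of PNPLA2 differed from each other. G0S2 (chromosome 1, 209675412 to 209676390) had 248, 386 and 277 CPM in knockout libraries 1, 2 and 3, against 164, 154 and 153 CPM in control libraries. The knockout libraries lay above all controls but also far from each other, with a coefficient of variation of 24.0% in knockout and 3.87% in control cells. G0S2 rose 1.93-fold (0.95 ± 0.15 SE on the log2 scale; edgeR adjusted p = 7.12e-04). Without knockout library 2 its log2 fold change was 0.74, and with the length and GC offset it was 0.29 and did not pass (edgeR adjusted p = 0.091). HILPDA (chromosome 7, 128455849 to 128458418), which is hypoxia-inducible, had 16.8, 16.6 and 17.9 CPM in knockout libraries, against 18.2, 18.7 and 16.0 CPM in control libraries. The groups overlapped and the log2 fold change was -0.04 (95% interval -0.31 to 0.23; edgeR adjusted p = 0.77).

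The 3 lipases of the triglyceride pathway did not move together. PNPLA2 (chromosome 11, 818914 to 825573) had 98.4, 113 and 115 CPM in knockout libraries 1, 2 and 3, against 92.6, 83.9 and 84.3 CPM in control libraries. The groups did not overlap, and PNPLA2 rose 1.25-fold (log2 fold change 0.32, SE 0.10; edgeR adjusted p = 0.020). The direction turned with the length and GC offset, where PNPLA2 passed as lower (log2 fold change -0.20, adjusted p = 0.041). The call as higher was also lost when knockout 3, control 2 or control 3 was left out, at adjusted p of 0.074, 0.081 and 0.071 in that order (0.012 to 0.22 across the alternatives). ABHD5 (chromosome 3, 43690108 to 43734371), its co-activator, had 39.8, 48.8 and 40.7 CPM in knockout libraries, against 32.9, 35.5 and 38.0 CPM in control libraries. The groups lay apart by a narrow margin, and the log2 fold change of 0.28 (SE 0.12) did not pass (edgeR adjusted p = 0.068). ABHD5 and ANO10, a gene on the opposite strand, share 170 exonic bases, and whether strand was used in counting is not given in the sources used here.

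LIPE (chromosome 19, 42401514 to 42427388) had the largest change of the 10. It had 15, 7 and 12 reads in knockout libraries 1, 2 and 3, against 79, 70 and 80 reads in control libraries. These are 0.62, 0.28 and 0.44 CPM in knockout libraries and 3.47, 2.80 and 2.99 CPM in control libraries, so the groups lay far apart at a low level. Knockout libraries 1, 2 and 3 kept 20.2%, 9.15% and 14.3% of the control mean. LIPE fell 6.82-fold (log2 fold change -2.77, SE 0.28; edgeR adjusted p = 6.58e-05). The log2 fold change lay between -3.06 and -2.53 with each library left out in turn. Its antisense neighbour LIPE-AS1, which shares 500 exonic bases with it, had 8, 6 and 6 reads in knockout and 5, 4 and 6 reads in control libraries.

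MGLL (chromosome 3, 127689062 to 128052190) had 347, 215 and 296 CPM in knockout libraries 1, 2 and 3, against 204, 202 and 195 CPM in control libraries. All knockout libraries were above the controls, but knockout library 2 only by a small margin, at 107% of the control mean against 173% in library 1. MGLL rose 1.43-fold (0.51 ± 0.16 SE on the log2 scale; edgeR adjusted p = 0.018). The call was lost without knockout library 1 (log2 fold change 0.35, adjusted p = 0.062) or without control 3 (log2 fold change 0.51, adjusted p = 0.052; the alternatives spanned 5.39e-05 to 0.076). Without knockout library 2 the log2 fold change was 0.69.

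The assembly genes were low and did not pass. FITM2 (chromosome 20, 44302840 to 44311202) had 6.96, 4.20 and 6.10 CPM in knockout libraries, against 6.67, 5.24 and 4.82 CPM in control libraries, and the groups overlapped (log2 fold change 0.05, 95% interval -0.44 to 0.54; edgeR adjusted p = 0.86). BSCL2 (chromosome 11, 62689289 to 62709845) had 16, 10 and 16 reads in knockout libraries, against 11, 15 and 24 reads in control libraries. The groups overlapped (log2 fold change -0.27, 95% interval -1.06 to 0.53; edgeR adjusted p = 0.54), and the interval is wide at this depth. BSCL2 shares 1610 exonic bases with the annotated readthrough gene HNRNPUL2-BSCL2, which is listed at 0 reads in every library, and how shared reads were counted is not given, so its level is uncertain.

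Scaled per length of the canonical transcript, PLIN2 stood at the top and LIPE and BSCL2 at the bottom in both groups. In knockout cells the order of the levels was PLIN2 (479 CPM per kb), G0S2 (346), PLIN3 (109), MGLL (67.0), PNPLA2 (45.0), HILPDA (12.5), ABHD5 (8.13), FITM2 (1.24), BSCL2 (0.32) and LIPE (0.12). In control cells it was PLIN2 (306 CPM per kb), G0S2 (179), PLIN3 (97.2), MGLL (46.9), PNPLA2 (36.0), HILPDA (12.9), ABHD5 (6.70), FITM2 (1.21), LIPE (0.82) and BSCL2 (0.39). The orders differ only in the last 2 places, where both genes have few reads. How shared reads were counted for BSCL2 is not given, as stated above, so its place in the order is uncertain. Neighbours in the order did not overlap between libraries of a group, with the exception of PLIN2 and G0S2 in knockout cells (421 to 539 against 283 to 441 CPM per kb).

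**Figure D2:**
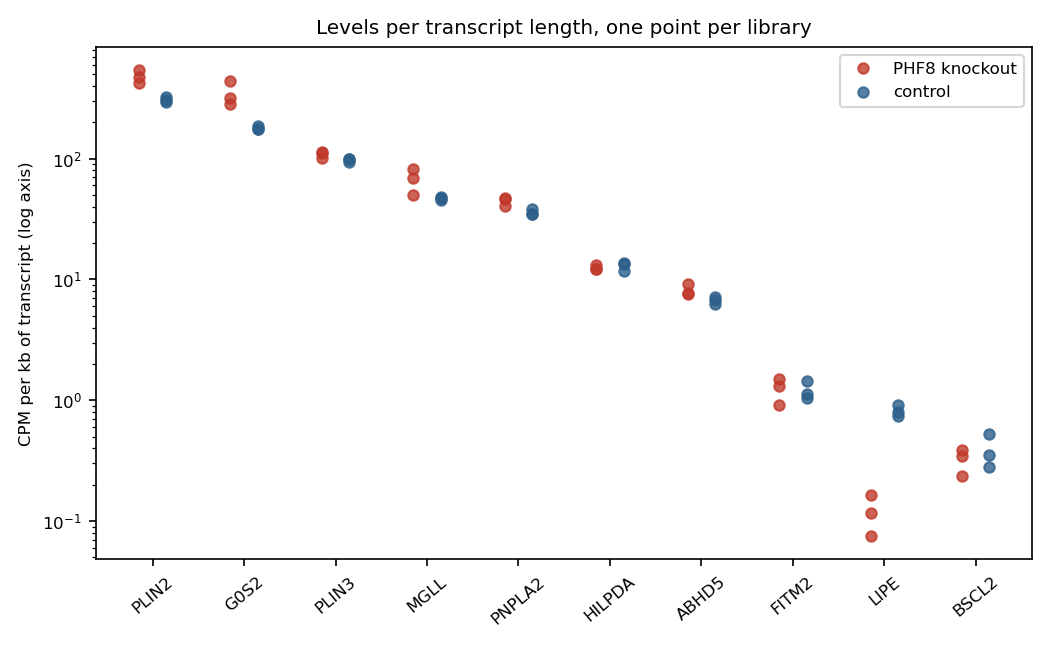
Levels of the 10 genes in CPM per kb of canonical transcript (vertical log axis), 1 point per library, PHF8 knockout in red left of control in blue, ordered by the control mean. PLIN2 is at the top with means of 479 CPM per kb in knockout and 306 CPM per kb in control cells, and LIPE is the gene whose points separate most.

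Ratios within a library do not depend on the library totals or TMM factors, but they do depend on a correction that differs by gene, such as the length and GC offset, which is not applied here. PLIN2 over PLIN3, in CPM per kb, was 3.72, 5.28 and 4.27 in knockout libraries 1, 2 and 3, against 3.23, 3.09 and 3.13 in control libraries. G0S2 over PNPLA2, the inhibitor relative to its lipase, was 6.95, 9.44 and 6.63 in knockout libraries, against 4.89, 5.07 and 5.01 in control libraries. Both ratios were higher in every knockout library than in any control library. HILPDA over PNPLA2 went the other way, with 0.30, 0.26 and 0.27 in knockout libraries and 0.35, 0.39 and 0.34 in control libraries. ABHD5 over PNPLA2, the co-activator relative to the lipase, was 0.18, 0.20 and 0.16 in knockout libraries and 0.16, 0.19 and 0.21 in control libraries, which overlap. With the offset the log2 fold changes of these genes lay far apart, at 1.12 for ABHD5 and -0.20 for PNPLA2. PNPLA2 over LIPE was 246, 623 and 407 in knockout libraries, against 41.7, 46.7 and 44 in control libraries. Of the summed level of the 10 genes, PLIN2 made up 43.8% to 45.7% in knockout and 44.2% to 44.9% in control libraries. G0S2 made up 29.4%, 36.7% and 30.2% in knockout libraries, against 26.1%, 25.7% and 26.4% in control libraries. These ratios carry no test because the genes were chosen with results known.

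**Figure D3:**
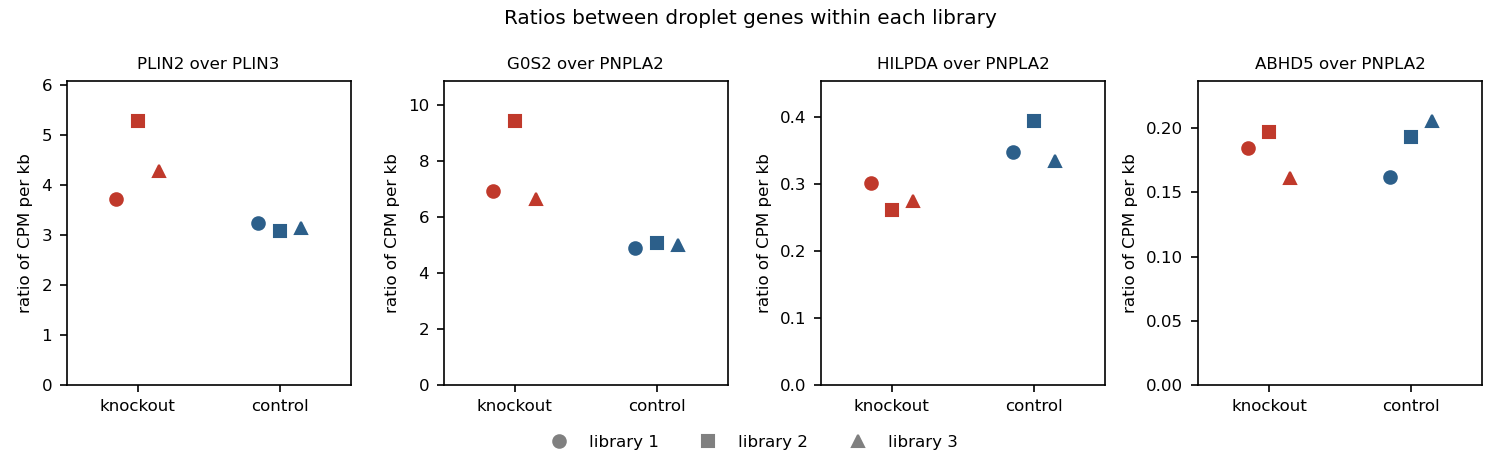
Ratios of CPM per kb within each library (vertical axes, from 0) for 4 gene pairs, with PHF8 knockout libraries in red on the left and control libraries in blue on the right. G0S2 over PNPLA2 lies between 6.63 and 9.44 in knockout and between 4.89 and 5.07 in control libraries, while ABHD5 over PNPLA2 overlaps. No length and GC offset is applied.

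Knockout library 2 differed from libraries 1 and 3 in most of these genes, as it did in many of the tested genes. It had the highest PLIN2, G0S2 and ABHD5 of the knockout libraries and the lowest PLIN3, HILPDA, LIPE, MGLL, BSCL2 and FITM2. It also had the lowest PHF8, 6.74 CPM against 10.8 and 12.8 CPM in libraries 1 and 3. Library 2 was the one farthest from the median of the knockout libraries in 7 of the 10 genes, against 56.2% of tested genes. The exceptions were HILPDA, where library 3 was farthest, and PNPLA2 and LIPE, where library 1 was. Over the 6 libraries the closest followers of PLIN2 in log2 CPM, among genes averaging 5 CPM or more, were PTTG1IP, MRPS34 and C19orf43 (Pearson r 0.9998, 0.9993 and 0.9991). With 2 groups of 3 libraries this is a description, and 1406 of 10314 genes compared reached an r of 0.95.

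Correcting each library for transcript length and GC content changed 5 of the 10 calls. This offset removes smooth trends with length and GC content from each library, including any group difference that follows them. LIPE (3768 bases, 61.0% GC) then had a log2 fold change of -2.97 (SE 0.26; edgeR adjusted p = 1.31e-05). PLIN2 (1897 bases, 47.6% GC) kept a smaller rise of 0.35 (SE 0.07, adjusted p = 0.0025) and MGLL (4271 bases, 56.5% GC) one of 0.46 (SE 0.09, adjusted p = 0.0021). G0S2 (876 bases, 57.1% GC) lay at 0.29 (SE 0.14) and no longer passed (adjusted p = 0.091, with 8.52e-11 to 0.091 over all alternatives). PNPLA2 (2416 bases, 64.8% GC) turned from higher to lower, at -0.20 (SE 0.08, adjusted p = 0.041).
The genes that had not passed moved as well. ABHD5 (5298 bases, 37.0% GC) passed as higher at 1.12 (SE 0.11, adjusted p = 2.65e-05, with 2.65e-05 to 0.46 over all alternatives). PLIN3 (2232 bases, 58.0% GC) passed as lower at -0.33 (SE 0.06, adjusted p = 0.0012), and HILPDA (1364 bases, 51.2% GC) passed as lower at -0.55 (SE 0.10, adjusted p = 0.0010, with 0.0010 to 0.98 over all alternatives). In all 3 of the 10 genes passed as higher and 4 as lower with the offset, against 30.5% and 28.1% of tested genes. PLIN2, MGLL and LIPE were the only ones of the 10 called in the same direction without and with it. The cause of these shifts was not tested.

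**Figure D4:**
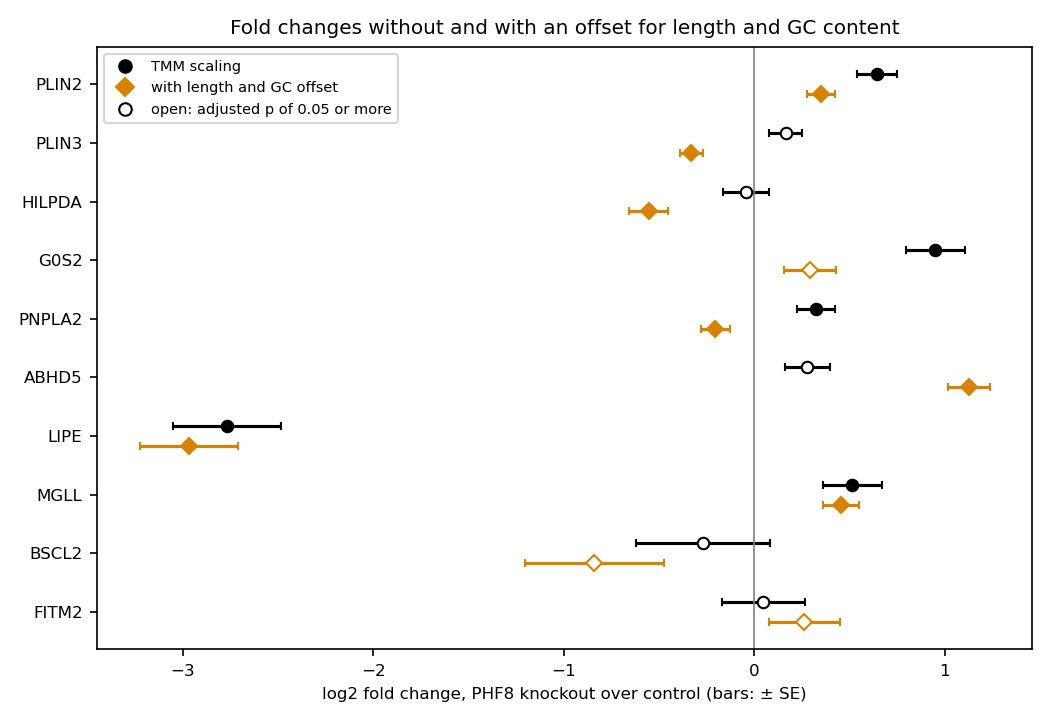
Log2 fold change of PHF8 knockout over control (horizontal axis, bars ± SE) for the 10 genes, without (black circles) and with (orange diamonds) the offset for transcript length and GC content; filled symbols passed an adjusted p of 0.05. LIPE stays near -2.77 and -2.97, ABHD5 moves from 0.28 to 1.12 and PNPLA2 from 0.32 to -0.20.

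Of 70 further droplet and lipolysis genes, listed by role and all found in the table, 53 were tested, 15 rose and 23 fell (median log2 fold change -0.22). Over all tested genes 28.9% passed as higher and 30.8% as lower. With the length and GC offset 20 of the 53 passed as higher and 15 as lower (median 0.05), against 30.5% and 28.1% of tested genes. These shares over all tested genes are given again beside the counts of each list with tested genes below. The coat genes typical of adipocytes and of oxidative tissue were nearly silent. Of the 6 other coat genes 0 were tested, PLIN1 had 26 reads over all libraries, PLIN4 had 1, and PLIN5 and CIDEA had 0 of 150998035 reads, which allows up to 0.020 CPM (counting error only). Among the coat genes measured, PLIN2 and PLIN3 thus held nearly all reads.

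Of 13 other lipid hydrolases 9 were tested, 3 rose and 5 fell. Over all tested genes 28.9% passed as higher and 30.8% as lower, or 30.5% and 28.1% with the length and GC offset. With the offset 3 of these 9 genes passed as higher and 4 as lower. LIPA, the lysosomal acid lipase, averaged 234 ± 22.3 CPM in knockout and 131 ± 0.78 CPM in control cells (SD, n = 3 each, log2 fold change 0.83; edgeR adjusted p = 1.25e-04). CES2, a carboxylesterase, rose 1.86-fold and PNPLA6, a lysophospholipase, 1.69-fold. NCEH1, which cuts cholesteryl esters, averaged 272 ± 12.9 CPM in knockout and 443 ± 22.8 CPM in control cells (SD, n = 3 each; edgeR adjusted p = 1.73e-04), with a log2 fold change of -0.07 after the offset (adjusted p = 0.42, with 4.13e-10 to 0.42 over all alternatives). DDHD1, a phospholipase, fell 2.35-fold and lay at -0.09 with the offset. DDHD2, a triglyceride lipase of neurons, and LDAH, a droplet-bound hydrolase, fell 1.81-fold and 1.74-fold, with smaller log2 fold changes of -0.28 and -0.31 after the offset. ABHD6, another monoglyceride lipase, had a log2 fold change of -0.19 (edgeR adjusted p = 0.17) and passed as lower with the offset (-0.53).

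Of 8 assembly genes 7 were tested, 4 rose and 2 fell. Over all tested genes 28.9% passed as higher and 30.8% as lower, or 30.5% and 28.1% with the length and GC offset. With the offset 4 of these 7 genes passed as higher. DGAT2 and DGAT1, which add the last fatty acid to a triglyceride, rose to 24.2 ± 0.89 and 48.1 ± 2.79 CPM in knockout cells, against 9.82 ± 0.37 and 25.7 ± 1.08 CPM in control cells (SD, n = 3 each; edgeR adjusted p = 3.56e-05 for DGAT2 and 1.08e-04 for DGAT1). Both kept their direction with the offset, at 0.88 and 0.66 on the log2 scale. LDAF1, the partner of seipin, listed under its older symbol TMEM159, rose 1.36-fold, and PCYT1A, which makes phosphatidylcholine for growing droplets, rose 1.34-fold. LDAF1 (TMEM159) did not pass in 5 of 16 alternatives, with a log2 fold change of 0.12 after the offset, and PCYT1A did not pass in 4 of 16. SOAT1, which makes cholesteryl esters, and ACSL3, an acyl-CoA synthetase of young droplets, fell 1.70-fold and 1.39-fold, with log2 fold changes of 0.18 and 0.40 after the offset. The 2 falls among the assembly genes became 0 with it.

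Of 22 genes of the droplet surface and its traffic 20 were tested, 5 rose and 8 fell. Over all tested genes 28.9% passed as higher and 30.8% as lower, or 30.5% and 28.1% with the length and GC offset. With the offset 8 of these 20 genes passed as higher and 5 as lower, so the balance of the list depended on scaling. HSD17B11, a droplet-bound steroid dehydrogenase, had the largest fall among them, with 9.23 ± 2.04 CPM in knockout and 47.8 ± 6.19 CPM in control cells (SD, n = 3 each, log2 fold change -2.37; edgeR adjusted p = 2.10e-05), and it lay at -2.22 with the offset. CAV1 (caveolin 1) fell 2.16-fold. RAB3GAP2 and RAB3GAP1, which together activate the droplet GTPase RAB18, fell 2.36-fold and 1.53-fold, with log2 fold changes of -0.27 and -0.05 after the offset. NSDHL and SQLE, cholesterol synthesis enzymes that can sit on droplets, rose 3.03-fold and 2.21-fold. ARF1, which recruits the coat that delivers proteins to droplets, rose 1.84-fold (log2 fold change 0.36 after the offset), and AUP1 rose 1.6-fold, with a log2 fold change of 0.05 after the offset.

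Of 21 genes of the cyclic AMP kinase and PPAR arms that control lipolysis 17 were tested, 3 rose and 8 fell. Over all tested genes 28.9% passed as higher and 30.8% as lower, or 30.5% and 28.1% with the length and GC offset. With the offset 5 of these 17 genes passed as higher and 6 as lower. PPARG, the nuclear receptor of adipocyte genes, averaged 17.7 ± 0.86 CPM in knockout and 38.5 ± 2.34 CPM in control cells (SD, n = 3 each, log2 fold change -1.12; edgeR adjusted p = 5.03e-05), and lay at -1.27 with the offset. PPARD rose 1.31-fold, a call lost in 6 of 16 alternatives (highest edgeR adjusted p 0.12). PPARA, the receptor that senses fatty acids freed by lipolysis, had a log2 fold change of -0.11 (edgeR adjusted p = 0.59), but 0.53 with the offset (adjusted p = 5.70e-04, with 5.70e-04 to 0.91 over all alternatives). PRKACB, a catalytic subunit of the kinase that phosphorylates perilipins and LIPE, fell 2.26-fold, and PRKAR2A, a regulatory subunit, fell 1.95-fold, while PRKAR2B rose 2.16-fold. With the offset PRKACB and PRKAR2A each had a log2 fold change of -0.37, which passed for PRKAR2A and not for PRKACB (edgeR adjusted p = 0.052), and PRKAR2B lay at 1.62. ADCY3, an enzyme that makes cyclic AMP, fell 2.11-fold, and GNAS, the G protein subunit that stimulates it, rose 1.38-fold, with a log2 fold change of -0.08 after the offset.

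**Figure D5:**
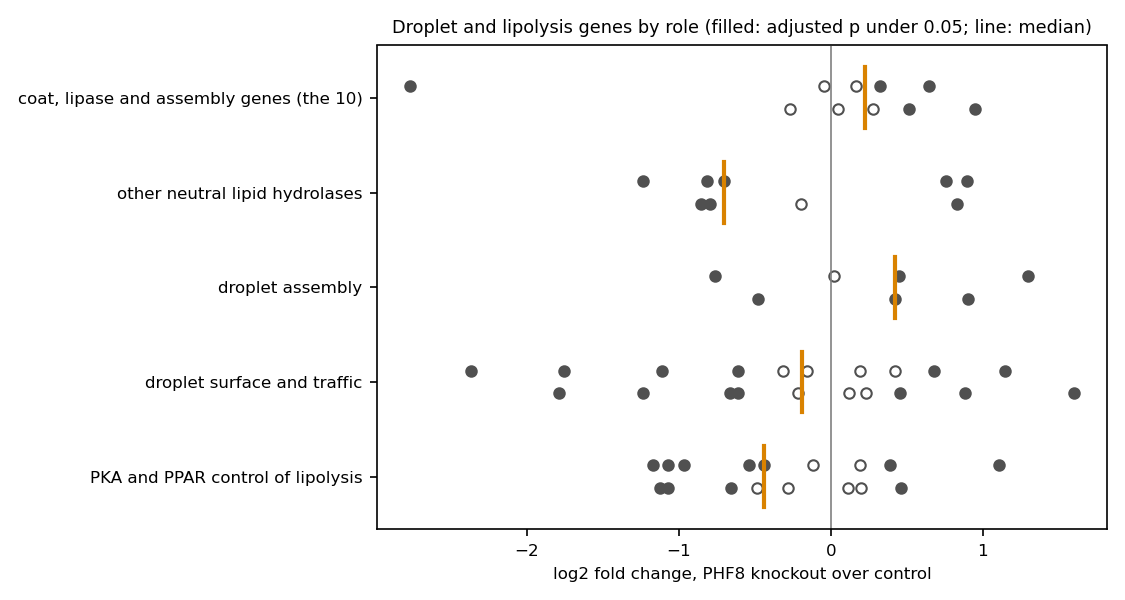
Log2 fold changes of PHF8 knockout over control (horizontal axis) for tested droplet and lipolysis genes in 5 lists (vertical axis), 1 point per gene, filled where the adjusted p was under 0.05, with the list's median as an orange line. The 10 genes have a median of 0.22 and the other hydrolases one of -0.70, and LIPE is the point at -2.77. No length and GC offset is applied, and with it these medians are 0.03 and -0.09.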

How the data were processed

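Per the series design text in the labels, the authors filtered reads, mapped them to GRCh38 (NCBI) with HISAT2 (version 2.0.4, per the submitters' processing notes) and counted them per gene with HTSeq. What the authors deposited is 1 table of raw counts of reads, listed by gene symbol and not normalized. Strand setting: not given in the sources used here, nor is the annotation release. Coordinates, canonical transcript lengths and GC content come from GENCODE v44 on GRCh38 (34408 symbols matched directly, 1524 by an older symbol), and promoters from RefSeq.

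Groups were compared with the quasi-likelihood F-test of edgeR 4.0.16 (R 4.3.3) with group as the only term, TMM factors (0.936 to 0.957 in knockout, 1.05 to 1.07 in control libraries) and filterByExpr, with Benjamini-Hochberg adjustment over 14398 genes. SE is the log2 fold change over the root of F. The analysis was tested on simulated counts, in which 67, 67 and 66 genes were changed 1.5-fold, 2-fold and 4-fold. It recovered 14.9%, 73.1% and 92.4% of them, and 2 of 122 calls fell on unchanged genes. Small changes were thus often missed there. Fewer genes were changed than passed in the real data, so these shares need not carry over. Alternatives were DESeq2 1.42.0, limma-voom (limma 3.58.1), other scaling and filters, a replicate block, leaving out each library and the length and GC offset (lowess span 0.3; 92.3% of tested genes had both values). No library pair within a group was a duplicate. The genes and lists were chosen with earlier results of these data known. Named are PHF8, the 10 genes and, per further list, up to 4 called genes per direction by p; ABHD6 and PPARA were added after their values were seen.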

Additional observations from a re-analysis of the deposited data

How the results depend on the processing

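PHF8, PLIN2 and LIPE kept their direction and passed in all 16 alternatives (log2 fold changes -1.99 to -1.53, 0.35 to 0.73 and -3.06 to -2.53). The 10 genes gave 4 higher and 1 lower, but 2 higher with library totals only, and 4 lower with the length and GC offset or 3 lower with the offset and the replicate block. Leaving out each library gave 2 to 5 higher. The 23 falls among the further droplet genes became 15 with the offset and 14 with offset and block. With library totals only, the median log2 fold change over tested genes was -0.18 in place of -0.01, PLIN3 lay at -0.0044 and FITM2 at -0.12, and MGLL (adjusted p = 0.076) and PNPLA2 (adjusted p = 0.22) no longer passed. With the offset, without and with the replicate block, PLIN3 reversed to -0.33 in each, PNPLA2 to -0.20 and -0.21, SOAT1 to 0.18 in each, ACSL3 to 0.40 in each, GNAS to -0.084 and -0.085, and PPARA to 0.53 in each. The cause was not tested. Leaving out libraries turned genes that had not passed, HILPDA (-0.095 to 0.019), BSCL2 (-0.42 to 0.040), FITM2 (-0.11 to 0.23) and PPARA (-0.27 to 0.069). Libraries with the same number did not deviate together (correlations 0.020, -0.044 and 0.011). With 3 libraries per group this cannot show whether such libraries share a culture or a preparation batch, which is not stated. With the replicate block 8308 genes passed in place of 8593. Of the 10 genes 3 then passed as higher, PNPLA2 lying at an edgeR adjusted p of 0.051. BSCL2 and LIPE have few reads, which limits their precision.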
